A study of Mus musculus with 45 samples.

Results

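Cxcl1, Cxcl2, Cxcl3 and Cxcl5 encode neutrophil-attracting CXC chemokines of the mouse, and they were the 4 genes described here of the 37991 genes counted in the series. They were chosen by name, and all 4 passed the filter on low counts. RNA was sequenced from primary mouse embryonic fibroblasts (MEFs) of strain C57BL/6, which are cells of embryonic connective tissue in culture. They were either p53KO, without the transcription factor p53, or wild type (WT). After a night in 0.5% serum the cells received LPS at 100 ng/ml, a bacterial cell wall lipid sensed by Toll-like receptor 4, or one of the inflammatory cytokines interleukin-1 beta (IL-1b, 10 ng/ml) and tumour necrosis factor (TNF, 10 ng/ml). Time points were 0, 0.5, 1, 3 and 8 h, with separate 0 h libraries for every stimulus. Each p53KO group held 2 libraries, named p53KO-1 and p53KO-2 here after the sample titles, and each WT group held 1, which gives 30 p53KO and 15 WT libraries. The labels do not say whether p53KO-1 and p53KO-2 came from separate embryos, so p-values measure the spread between these samples, which may be technical. The p53KO-1, p53KO-2 and WT libraries are each called a line below for short, although the sample titles name no lines. The study compared p53-deficient with WT MEFs because cells without p53 can be propagated for longer. None of the 45 libraries held cells without a stimulus at a later time. In a change from 0 h, the stimulus and the time in culture thus cannot be told apart.

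Neutrophils are the white blood cells that arrive first at a site of infection or injury, and they find it by following gradients of CXC chemokines. The members of this group carry a glutamate-leucine-arginine motif ahead of their CXC cysteines and act through the receptor CXCR2. Cxcl1 encodes the chemokine also called KC, Cxcl2 encodes MIP-2, Cxcl3 encodes a close relative of Cxcl2, and Cxcl5 encodes the chemokine also called LIX. In fibroblasts and many other cells such genes are switched on by NF-kB, a transcription factor held in the cytoplasm by IkB proteins until a receptor is engaged, and messages with AU-rich elements in their 3′ untranslated regions (UTRs) are short-lived.

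The 4 genes lie on the plus strand of chromosome 5 within 146.6 kb (mm9). Cxcl5 (ENSMUSG00000029371) spans chr5:91188325-91190651, Cxcl3 (ENSMUSG00000029379) chr5:91215129-91217112, Cxcl1 (ENSMUSG00000029380) chr5:91320267-91322141 and Cxcl2 (ENSMUSG00000058427) chr5:91332897-91334935. RefSeq promoter windows on GRCm38.p6, from 250 bases before to 50 bases after the transcription start, were matched for 3 of the 4 genes. They are shown because they hold the same 10-base match to the NF-kB site, with the words GGGAATTTCC and ATAAAAG in capitals.
Cxcl1, chr5:90890995-90891294, plus strand: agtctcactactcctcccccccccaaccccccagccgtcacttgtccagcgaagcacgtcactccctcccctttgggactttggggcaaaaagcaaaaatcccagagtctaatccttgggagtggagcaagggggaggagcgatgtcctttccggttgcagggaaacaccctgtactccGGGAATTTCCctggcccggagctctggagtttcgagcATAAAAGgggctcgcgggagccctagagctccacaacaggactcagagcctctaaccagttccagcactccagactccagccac
Cxcl2, chr5:90903649-90903948, plus strand: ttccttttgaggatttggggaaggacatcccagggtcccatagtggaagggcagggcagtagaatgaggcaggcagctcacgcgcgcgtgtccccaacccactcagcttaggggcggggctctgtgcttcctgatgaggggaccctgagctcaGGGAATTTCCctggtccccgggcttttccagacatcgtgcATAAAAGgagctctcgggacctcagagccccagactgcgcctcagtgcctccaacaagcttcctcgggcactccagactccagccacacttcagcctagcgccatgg
Cxcl3, chr5:90785851-90786150, plus strand: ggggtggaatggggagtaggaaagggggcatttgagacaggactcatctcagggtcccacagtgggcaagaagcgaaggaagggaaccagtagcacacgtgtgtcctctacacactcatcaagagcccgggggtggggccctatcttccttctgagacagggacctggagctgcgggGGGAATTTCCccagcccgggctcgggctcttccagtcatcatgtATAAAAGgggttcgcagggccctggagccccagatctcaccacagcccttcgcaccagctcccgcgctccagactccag
GGGAATTTCC began 71, 97 and 73 bases before the start of Cxcl1, Cxcl2 and Cxcl3, and ATAAAAG began 34, 57 and 29 bases before it. Both words were searched on both strands. GGGAATTTCC was picked as the kB consensus match that these 3 promoters share, so its presence in all 3 is not a test. It was present in 29 of 32851 mouse promoter windows of the same length (0.09%), these 3 among them. The looser kB consensus, which overlaps it, was present in 8.46%, and ATAAAAG in 5.42%. Of the other 26 genes with GGGAATTTCC, 9 were tested, and at 3 h 4 were higher and 1 lower after LPS, 4 and 1 after IL-1b, and 3 and 1 after TNF. Of all genes tested, 21.9%, 21% and 18.4% were higher at 3 h of LPS, IL-1b and TNF. A match of letters does not show that a factor binds there.

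The 3′ UTRs of the principal transcripts held 7 copies of ATTTA, the core of the AU-rich element, in Cxcl1, 11 in Cxcl2, 5 in Cxcl3 and 5 in Cxcl5. Per kb of 3′ UTR these were 11.8, 15.0, 7.75 and 4.50, against a median of 1.16 over 20738 protein-coding transcripts, of which 10.2% reached the lowest of the 4 values. The longer word ATTTATTTA occurred 2 times in Cxcl1 and 4 times in Cxcl2 and was not found in the 3′ UTR of Cxcl3 or Cxcl5, and 5.70% of the 20738 transcripts held it. The 30-base window richest in ATTTA in each 3′ UTR is shown, with ATTTA in capitals. These windows differed in their number of copies, with 4 in Cxcl1, 5 in Cxcl2, 2 in Cxcl3 and 1 in Cxcl5.
Cxcl1: gagggtcctATTTATTTAtgtATTTATTTA
Cxcl2: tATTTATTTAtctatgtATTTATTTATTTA
Cxcl3: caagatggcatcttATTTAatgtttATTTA
Cxcl5: agcttcctgctcatctcacaagtgtATTTA
The coding sequences of Cxcl2 and Cxcl3 were 89.7% identical, and the other pairs were 64.7 to 78.8% identical. Of the 50-base words of the Cxcl2 transcript, 5.75% were shared with Cxcl3, and of those of Cxcl3 6.31% were shared with Cxcl2. Cxcl5 shared 0.87% with other genes and Cxcl1 shared none. A single 50-base read from a shared stretch matches both Cxcl2 and Cxcl3. Its paired end may place it, and the effect on the counts of both was not tested.

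Gene counts totalled 5619870 to 15355994 per library (median 9347770). Trp53, the gene of p53, stood at 50.9 to 86.6 CPM, which is counts scaled to the same library size, in p53KO libraries and at 158 to 293 CPM in WT libraries. The 10 fibroblast markers were all measured, with summed levels of 30570 to 40130 CPM in p53KO and 30680 to 38070 CPM in WT. Of 9 neutrophil markers none passed the filter, and their summed level was 0 to 1.36 CPM in p53KO and 0 to 1.70 CPM in WT. Libraries differed in how level ran with transcript length, with a Spearman rho across 9561 genes from -0.62 in p53KO-2 at 0.5 h of IL-1b to 0.42 in p53KO-1 at 0 h of TNF. It was -0.41 in p53KO-1 at 0.5 h and -0.50 in WT at 3 h of IL-1b. Removing that trend changed no call of a member between a time and 0 h. Cxcl1 and Cxcl5 were higher in p53KO-2 than in p53KO-1 in all 15 conditions, with median ratios of 1.64 and 1.37. Cxcl2 was higher in p53KO-2 in 11 of 15 conditions and Cxcl3 in 6 of 15. The spread within groups was taken relative to that expected at a gene's level, and was moderated toward the values of other genes. This relative spread was wide for 3 members. For Cxcl1, Cxcl2 and Cxcl5, 99.9%, 98.6% and 99.5% of all genes tested had a smaller one, against 63.8% for Cxcl3. That spread holds any steady difference between p53KO-1 and p53KO-2. A fit of the p53KO libraries with a term for that difference, the replicate block, called 15 member results that the main fit did not. They are named in the last section.

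At 0 h the chemokines were near the floor of detection in p53KO cells, apart from Cxcl5. Over the 6 p53KO libraries at 0 h, raw counts were 4 to 21 for Cxcl1, 2 to 8 for Cxcl2, 0 to 3 for Cxcl3 and 55 to 116 for Cxcl5. The 3 WT libraries at 0 h had 24 to 46, 1 to 8, 6 to 8 and 326 to 375 counts of the same genes. Per kb of transcript, the p53KO levels of Cxcl5 at 0 h were 4.30 to 6.35 CPM per kb, above 0.402 to 1.93 CPM per kb for Cxcl1.

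Each of the 4 genes was called higher than at 0 h in p53KO after each stimulus, and the number called grew with time. After LPS, 1 of 4 was higher at 0.5 h (0.433% of all 13851 genes tested were), 2 at 1 h (2.79%), and 4 at both 3 h (21.9%) and 8 h (17%). After IL-1b, 2 were higher at 0.5 h (2.64% of all genes), 3 at 1 h (2.78%), and 4 at both 3 h (21%) and 8 h (12.5%). After TNF, 2 were higher at 0.5 h (0.606%), 3 at 1 h (3.05%), and 4 at 3 h (18.4%) and 8 h (14.5%). A gene was called where its adjusted p in the edgeR quasi-likelihood fit was under 0.05. Fold changes are log2 differences of fitted levels. Their standard errors (SE) were derived from the test, as the size of the log2 difference divided by the square root of its F statistic. No member was called lower than at 0 h.

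**Figure D1:**
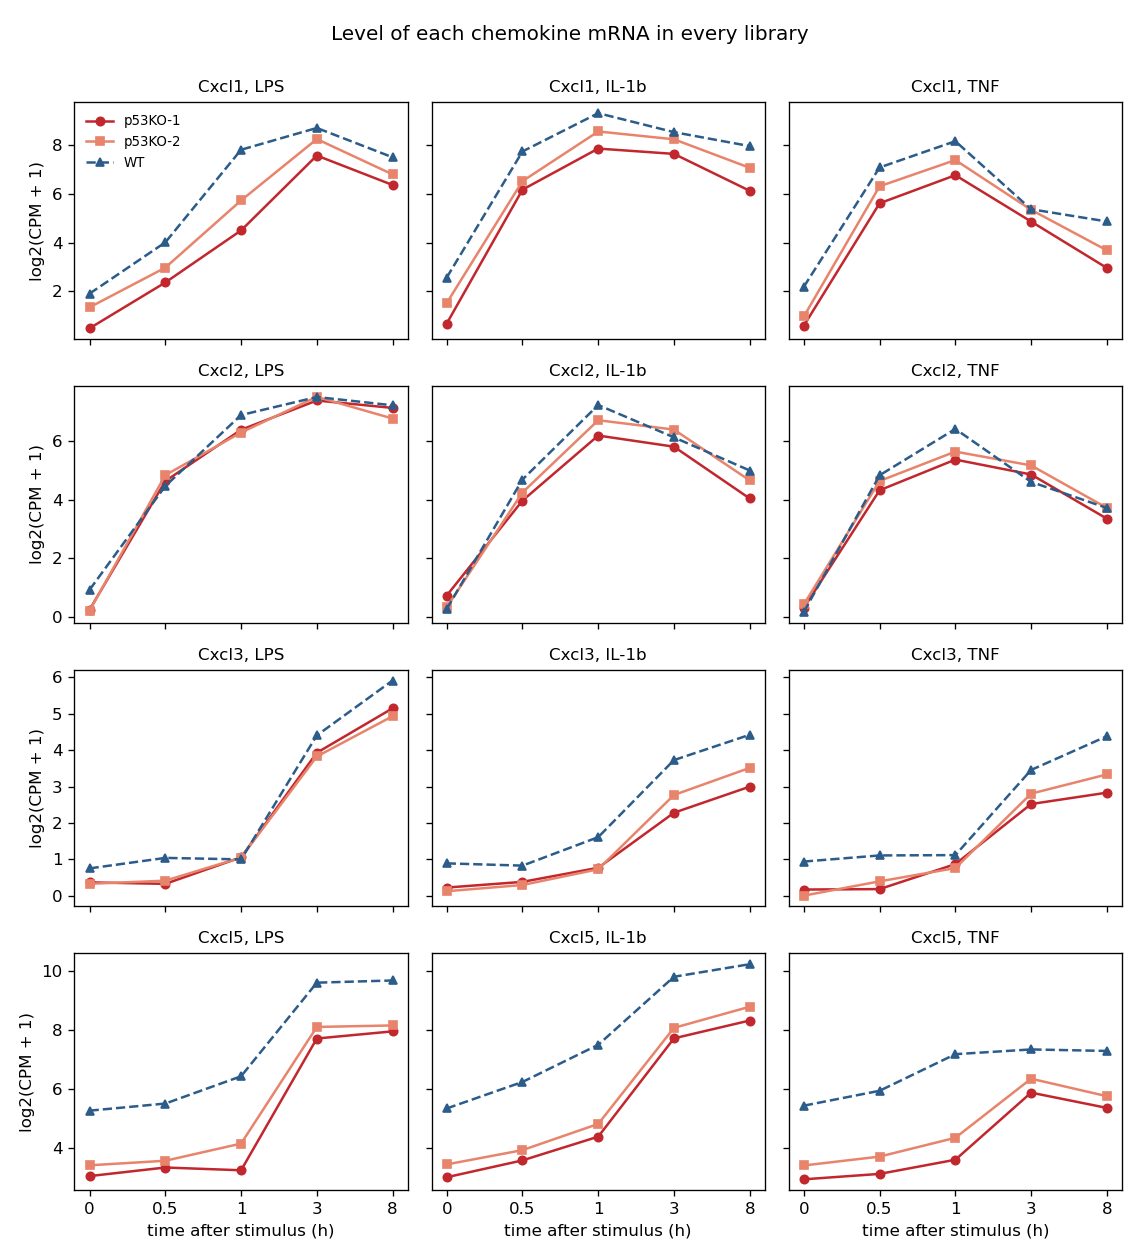
Level of each chemokine mRNA, as log2(CPM + 1), over the time course (h, drawn at equal steps), with genes in rows and stimuli in columns; red circles are p53KO-1, orange squares p53KO-2 and dashed blue triangles WT. Cxcl1 and Cxcl2 were highest at 1 h of IL-1b and TNF and at 3 h of LPS in all 3 lines, and Cxcl3 was highest at 8 h in every panel.

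Cxcl1 rose within 0.5 h of either cytokine, and with LPS its early change was smaller and its highest level came later. After IL-1b, p53KO-1 and p53KO-2 had 7 and 21 counts at 0 h, 952 and 1219 at 0.5 h, 2994 and 4081 at 1 h, 1817 and 2564 at 3 h, and 663 and 1250 at 8 h. WT cells had 46, 1946, 5645, 4085 and 2423 counts at the same times. After TNF, the p53KO libraries had 4 and 8 counts at 0 h, 363 and 1257 at 0.5 h, 1317 and 1699 at 1 h, 244 and 292 at 3 h, and 96 and 69 at 8 h. The level was thus highest at 1 h for both cytokines, and every later library lay above every 0 h library. After LPS, the p53KO counts were 4 and 18 at 0 h, 49 and 62 at 0.5 h, 181 and 441 at 1 h, 1488 and 2436 at 3 h, and 779 and 1141 at 8 h. WT cells had 24, 129, 2264, 3020 and 1709 counts after LPS and 27, 1177, 1731, 458 and 179 after TNF. With LPS the peak came at 3 h in all 3 lines. The log2 change from 0 h was 6.07 (SE 0.60, adjusted p = 1.29e-07) at 0.5 h and 7.98 (SE 0.56) at 1 h of IL-1b, and 6.47 (SE 0.74) and 7.55 (SE 0.68) at these times of TNF. At 0.5 h of LPS it was 2.42 (SE 1.00, adjusted p = 0.854 by edgeR, 0.0148 by DESeq2's test), at 1 h 5.21 (SE 0.71) and at 3 h 7.96 (SE 0.59, adjusted p = 3.63e-11).

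At 8 h Cxcl1 stood below its highest level in all 3 lines, and the share left was smallest after TNF in each. In p53KO-1 and p53KO-2 the 8 h level was 6.22% and 7.05% of the peak after TNF, 29.6% and 35.3% after IL-1b, and 42.9% and 36.3% after LPS. The WT values were 9.80%, 39.0% and 43.1% in the same order. From 3 h to 8 h Cxcl1 was lower by a log2 difference of -1.99 (SE 0.50) for TNF, -1.31 (SE 0.33) for IL-1b and -1.36 (SE 0.33) for LPS, where 12.6%, 17% and 18% of all genes were called lower. From 1 h to 3 h it was lower after TNF (-2.03, SE 0.37, adjusted p = 0.000152), where 15.2% of genes were, and higher after LPS (2.75, SE 0.37), where 18.6% were. After IL-1b the levels at 3 h and 1 h were not called different (-0.28, SE 0.31, adjusted p = 0.511), and the difference turned to 0.11 without the p53KO-2 library at 1 h and to 0.015 without the p53KO-1 library at 3 h. With the replicate block the difference was called (-0.27, adjusted p = 0.0428).

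Between 0.5 h and 1 h Cxcl1 rose further by 1.91 (SE 0.33) with IL-1b and 2.79 (SE 0.52, adjusted p = 0.00183) with LPS, where 6.39% and 1.47% of all genes were called higher, and it was not called with TNF (1.08, SE 0.34, adjusted p = 0.0997). With the replicate block the TNF step was called (1.13, adjusted p = 7.9e-08). The LPS step was not called without the p53KO-1 library at 0.5 h (2.44, adjusted p = 0.0617) or the p53KO-2 library at 1 h (2.02, adjusted p = 0.131), and the later step from 1 h to 3 h was 2.25 without the p53KO-1 library at 1 h and 3.52 without that of p53KO-2.

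Single libraries moved some of these values. The log2 change at 1 h of IL-1b was 7.37 without the p53KO-1 library at 0 h and 9.01 without that of p53KO-2, and at 3 h of LPS it was 7.34 and 9.29, all still called. The change at 8 h of TNF (3.53, SE 1.07, adjusted p = 0.0157) was not called without the p53KO-1 library at 0 h (3.15, adjusted p = 0.0935), without that of p53KO-2 (4.07, adjusted p = 0.0801) or without the p53KO-2 library at 8 h (3.21, adjusted p = 0.0583). The later decline was not called after IL-1b without the p53KO-2 library at 3 h (-0.99, adjusted p = 0.0595) or the p53KO-1 library at 8 h (-0.91, adjusted p = 0.0751). The same held after LPS without the p53KO-2 library at 3 h (-0.98, adjusted p = 0.059), and after TNF without the p53KO-1 library at 8 h (-1.51, adjusted p = 0.146).

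Cxcl2 had the largest log2 changes of the 4 genes after LPS, and it was the only one called at 0.5 h of LPS in the main edgeR fit. After LPS, p53KO-1 and p53KO-2 had 2 and 2 counts at 0 h, 283 and 250 at 0.5 h, 687 and 649 at 1 h, 1284 and 1430 at 3 h, and 1315 and 1102 at 8 h. WT cells had 8, 180, 1171, 1284 and 1383 counts. The log2 change in p53KO was 7.05 (SE 0.51, adjusted p = 3.89e-10) at 0.5 h, 8.69 (SE 0.43) at 1 h, 9.81 (SE 0.40) at 3 h and 9.32 (SE 0.41) at 8 h, each resting on 4 counts at 0 h. After IL-1b, the p53KO counts were 8 and 3 at 0 h, 195 and 239 at 0.5 h, 918 and 1105 at 1 h, 497 and 695 at 3 h, and 148 and 225 at 8 h. After TNF, they were 2 and 3 at 0 h, 143 and 380 at 0.5 h, 487 and 493 at 1 h, 242 and 256 at 3 h, and 131 and 71 at 8 h. With both cytokines the highest level was at 1 h, with log2 changes of 7.49 (SE 0.36) for IL-1b and 7.14 (SE 0.47) for TNF. The step from 1 h to 3 h was not called for IL-1b (-0.35, SE 0.18, adjusted p = 0.129) or TNF (-0.50, adjusted p = 0.0646). The TNF step was called with the replicate block (-0.50, adjusted p = 0.0181). For IL-1b it was called without the p53KO-1 library at 1 h (-0.59, adjusted p = 0.0224) or the p53KO-2 library at 3 h (-0.65, adjusted p = 0.0195). WT cells had 2, 224, 1299, 749 and 298 counts after IL-1b and 1, 238, 503, 264 and 77 after TNF, with peaks at the same times.

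Cxcl2 kept a larger share of its peak at 8 h of LPS than of either cytokine in every line. At 8 h it stood at 83.8% and 59.7% of its peak in p53KO-1 and p53KO-2 after LPS, at 21.6% and 23.4% after IL-1b and at 23.0% and 25.0% after TNF, and in WT at 82.1%, 20.8% and 14.5%. The log2 difference between 8 h and 3 h was -0.49 (SE 0.17, adjusted p = 0.025) after LPS, -1.79 (SE 0.21, adjusted p = 2.52e-07) after IL-1b and -1.61 (SE 0.25) after TNF. The LPS difference was not called by DESeq2's test (adjusted p = 0.064) or without the p53KO-1 library at 3 h (-0.54, adjusted p = 0.0526), the p53KO-2 library at 3 h (-0.42, adjusted p = 0.142) or the p53KO-2 library at 8 h (-0.32, adjusted p = 0.256). Between 0.5 h and 1 h Cxcl2 rose by 2.42 (SE 0.20) with IL-1b, 1.64 (SE 0.20) with LPS and 1.02 (SE 0.20, adjusted p = 0.0034) with TNF, where 1.52% of all genes were called higher. The TNF step was not called without the p53KO-1 library at 0.5 h (0.89, adjusted p = 0.0635) or the p53KO-2 library at 1 h (0.88, adjusted p = 0.0535). With LPS it rose again between 1 h and 3 h by 1.12 (SE 0.18). The change from 0 h at 1 h of IL-1b was 8.30 without the p53KO-1 library at 0 h and 7.00 without that of p53KO-2.

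Cxcl3 had the lowest counts of the 4 genes in p53KO libraries at every time after 0 h, and it rose late. After LPS, p53KO-1 and p53KO-2 had 3 and 3 counts at 0 h, 3 and 3 at 0.5 h, 9 and 9 at 1 h, 111 and 105 at 3 h, and 329 and 304 at 8 h. WT cells had 6, 9, 10, 145 and 559. At 1 h of LPS the ratio of scaled counts to 0 h in p53KO was 3.98 (95% interval for counting error 1.51 to 12.2), and the log2 change was 5.61 (SE 0.35) at 3 h and 6.83 (SE 0.30, adjusted p = 1.02e-15) at 8 h. After IL-1b, the p53KO counts were 2 and 1 at 0 h, 4 and 3 at 0.5 h, 9 and 7 at 1 h, 35 and 49 at 3 h, and 67 and 97 at 8 h. After TNF, they were 1 and 0 at 0 h, 1 and 5 at 0.5 h, 10 and 7 at 1 h, 41 and 44 at 3 h, and 87 and 53 at 8 h. WT cells had 8, 7, 18, 134 and 198 counts after IL-1b and 7, 10, 7, 113 and 126 after TNF. In all 9 time courses of the 3 lines the highest level was at 8 h.

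With 3 counts at 0 h in the IL-1b series and 1 in the TNF series, fold changes of Cxcl3 were taken as ratios of scaled counts with a 95% interval for counting error only. After IL-1b the ratio was 37.4 (12.4 to 185) at 3 h and 67.7 (22.8 to 332) at 8 h, and after TNF 88.4 (15.4 to 3531) and 116 (20.5 to 4622). At 1 h Cxcl3 was called after TNF (adjusted p = 0.0266, ratio 12.7, interval 1.99 to 531) but not after IL-1b (adjusted p = 0.0639) or LPS (adjusted p = 0.0636). DESeq2's test did not call it after TNF (adjusted p = 0.202). Nor was it called without the p53KO-1 or the p53KO-2 library at 0 h (adjusted p = 0.0605 and 0.228) or the p53KO-1 library at 1 h (adjusted p = 0.121). With the 0 h libraries of the 3 stimuli pooled, it was called at 1 h of IL-1b (log2 2.00, adjusted p = 0.0123) and of LPS (2.65, adjusted p = 0.000776). Between 1 h and 3 h Cxcl3 rose by 3.66 (SE 0.29) with LPS, 2.80 (SE 0.35) with IL-1b and 2.78 (SE 0.34) with TNF, where 18.6%, 19.9% and 16% of all genes were called higher. Between 3 h and 8 h Cxcl3 was higher at 8 h by 1.22 (SE 0.17, adjusted p = 2.13e-06) after LPS, where 20.2% of all genes were, and by 0.85 (SE 0.22, adjusted p = 0.00406) after IL-1b, where 18.5% were. The IL-1b difference was not called by DESeq2's test (adjusted p = 0.056), without the p53KO-1 library at 3 h (0.56, adjusted p = 0.119) or without the p53KO-2 library at 8 h (0.54, adjusted p = 0.138). After TNF the difference was 0.43 (SE 0.23, adjusted p = 0.18).

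Cxcl5 was the one member with a clear level before stimulation, and in p53KO it also rose late. After IL-1b, p53KO-1 and p53KO-2 had 86 and 114 counts at 0 h, 148 and 192 at 0.5 h, 258 and 294 at 1 h, 1907 and 2266 at 3 h, and 3064 and 4111 at 8 h. After LPS, the p53KO counts were 77 and 116 at 0 h, 110 and 100 at 0.5 h, 72 and 143 at 1 h, 1631 and 2185 at 3 h, and 2357 and 2924 at 8 h. After TNF, they were 55 and 83 at 0 h, 59 and 195 at 0.5 h, 137 and 198 at 1 h, 504 and 595 at 3 h, and 574 and 312 at 8 h. The log2 change was 4.80 (SE 0.27) at 3 h and 5.47 (SE 0.28, adjusted p = 1.14e-13) at 8 h of IL-1b, 4.81 (SE 0.28) and 4.94 (SE 0.28) at these times of LPS, and 3.06 (SE 0.31) and 2.47 (SE 0.32) of TNF. WT cells had 375, 680, 1584, 9761 and 11593 counts after IL-1b, 333, 383, 862, 5573 and 7696 after LPS, and 326, 528, 869, 1832 and 990 after TNF. All 3 lines were highest at 8 h of IL-1b and LPS and at 3 h of TNF. After TNF the WT level in CPM was already 89.4% of its peak at 1 h, against 19.4% in p53KO-1 and 24.1% in p53KO-2.

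At 1 h Cxcl5 was higher after IL-1b (log2 1.46, SE 0.31, adjusted p = 0.00276), a call lost without the p53KO-1 library at 0 h (1.24, adjusted p = 0.0828) or the p53KO-2 library at 1 h (1.23, adjusted p = 0.0634). It was not called at 1 h of TNF (0.87, SE 0.36, adjusted p = 0.176) or LPS (0.57, SE 0.36, adjusted p = 0.464). With pooled 0 h libraries the TNF change was called (0.84, adjusted p = 0.021). The replicate block called both the TNF change (0.87, adjusted p = 0.000214) and the LPS change (0.56, adjusted p = 0.0209). Between 0.5 h and 1 h of IL-1b it was higher by 0.89 (SE 0.28, adjusted p = 0.0491), a call lost with DESeq2's test (adjusted p = 0.0748) and without any 1 of its 4 libraries (0.66 to 1.10, adjusted p = 0.0544 to 0.368). Its main rise in p53KO fell between 1 h and 3 h, by 4.24 (SE 0.27) with LPS, 3.34 (SE 0.24) with IL-1b and 2.19 (SE 0.27) with TNF. Between 3 h and 8 h it was higher at 8 h after IL-1b by 0.67 (SE 0.20, adjusted p = 0.0119), a call lost with DESeq2's test (adjusted p = 0.111), without the p53KO-1 library at 3 h (0.48, adjusted p = 0.163) or without the p53KO-2 library at 8 h (0.42, adjusted p = 0.212). The later differences after LPS (0.14, SE 0.20) and TNF (-0.60, SE 0.24, adjusted p = 0.0704) were not called. With the replicate block the TNF difference was called (-0.56, adjusted p = 8.16e-05).

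**Figure D2:**
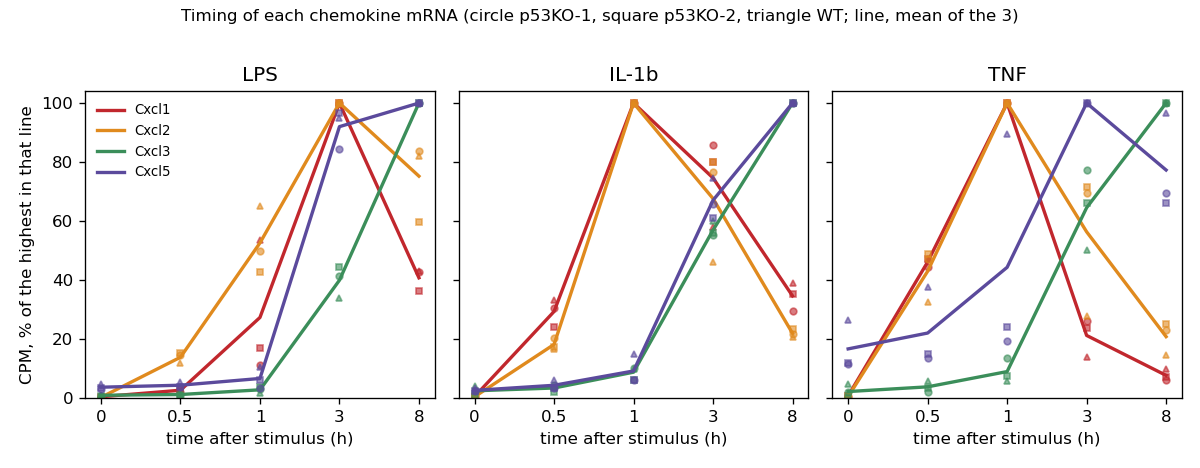
Level of each chemokine mRNA (CPM) as a percentage of its highest level in the same line and stimulus, over the time course (h, drawn at equal steps), in a panel for each stimulus; circles, squares and triangles are p53KO-1, p53KO-2 and WT and lines are their mean. Cxcl1 and Cxcl2 reached 100% at 1 h of IL-1b and TNF and at 3 h of LPS, while Cxcl3 stood at 1.68 to 13.5% of its highest level at 1 h in every line and reached 100% at 8 h.

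The order of the 4 levels per kb of transcript changed with time. Cxcl5 was the highest per kb in 24 of the 45 libraries, Cxcl1 in 17 and Cxcl2 in 4, and Cxcl3 in none. In p53KO at 1 h of IL-1b, Cxcl1 stood at 322 ± 109 CPM per kb, Cxcl2 at 78.7 ± 20.1, Cxcl5 at 15.1 ± 3.29 and Cxcl3 at 0.666 ± 0.0333 (SD, n = 2). At 8 h of IL-1b the order was Cxcl5 with 242 ± 54.8 CPM per kb, Cxcl1 with 107 ± 48.3, Cxcl2 with 17.9 ± 5.57 and Cxcl3 with 8.56 ± 2.39. The 4 libraries led by Cxcl2 were the p53KO libraries at 0.5 h and 1 h of LPS, where Cxcl2 stood at 23.1 ± 2.37 and 71.7 ± 3.28 CPM per kb and Cxcl1 at 5.74 ± 2.01 and 38.8 ± 22.7. At 3 h of LPS Cxcl1 (261 ± 85.5 CPM per kb), Cxcl2 (155 ± 9.54) and Cxcl5 (154 ± 29.3) lay closer together, and Cxcl2 and Cxcl5 did not differ beyond their spread.

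In p53KO, Cxcl1 was lower with LPS than with either cytokine at 0.5 h and 1 h. At later times it was higher with LPS than with TNF and was not called between LPS and IL-1b. The single WT libraries at 1 h had 225 CPM after LPS, 643 CPM after IL-1b and 288 CPM after TNF. At 0 h no member was called between any pair of stimuli in p53KO, and none had an unadjusted p under 0.05. Of all genes 0% were called by edgeR, while unadjusted p was under 0.05 for 263, 808 and 581 genes in LPS minus IL-1b, LPS minus TNF and IL-1b minus TNF, and DESeq2's test called 1 gene, in LPS minus TNF. At 0.5 h Cxcl1 stood at 5.47 ± 1.91 CPM after LPS, against 81.4 ± 14.1 CPM after IL-1b and 63.4 ± 21.7 CPM after TNF (SD, n = 2 each). The log2 difference of the levels was -3.93 (SE 0.48, adjusted p = 1.01e-05) for LPS minus IL-1b, where 1.93% of all genes were called lower, and -3.61 (SE 0.49) for LPS minus TNF, where 0.224% were. Cxcl2 was not called in these comparisons, with 25.6 ± 2.63 CPM after LPS, 16.3 ± 2.32 after IL-1b and 21.4 ± 3.45 after TNF. DESeq2's test called Cxcl2 higher with LPS than with IL-1b (0.66, adjusted p = 0.0424). Cxcl3 and Cxcl5 were not called at 0.5 h, and no member was called between IL-1b and TNF, where 16% of all genes were.

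At 1 h Cxcl1 was still lower with LPS than with IL-1b (-3.05, SE 0.36), where 0.592% of genes were, and than after TNF (-1.90, SE 0.36, adjusted p = 0.00556), where 0.44% were. The difference from IL-1b was -2.55 without the p53KO-1 library at 1 h of LPS and -3.82 without that of p53KO-2. The difference from TNF was not called by DESeq2's test (adjusted p = 0.0606), without the p53KO-1 library at 1 h of LPS (-1.40, adjusted p = 0.333) or without the p53KO-2 library at 1 h of TNF (-1.55, adjusted p = 0.159). Cxcl2 was higher at 1 h after LPS (0.84, SE 0.19, adjusted p = 0.0234), where 0.209% of genes were, and after IL-1b (0.98, SE 0.18, adjusted p = 0.0153), where 0.123% were, each than after TNF. The LPS call was lost without any 1 of its 4 libraries (0.71 to 0.99, adjusted p = 0.0634 to 0.282) and with the transcript length trend removed (0.78, adjusted p = 0.0557). The IL-1b call was lost without the p53KO-2 library at 1 h of IL-1b (0.69, adjusted p = 0.576) or without the p53KO-1 or p53KO-2 library at 1 h of TNF (0.84 and 1.12, adjusted p = 0.0943 and 0.0543).

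All 4 members were higher after LPS than after TNF at 3 h (4.92% of all genes were) and at 8 h (10.6%), with log2 differences of 1.36 to 2.88 and 2.15 to 3.58. At 8 h the p53KO levels after LPS and TNF were 96.4 ± 20.7 and 9.28 ± 3.58 CPM for Cxcl1 and 123 ± 21.8 and 10.7 ± 2.08 CPM for Cxcl2. For Cxcl3 they were 32.1 ± 3.51 and 7.60 ± 2.09 CPM and for Cxcl5 266 ± 26.2 and 46.9 ± 9.23 CPM. IL-1b minus TNF gave 3 of 4 members higher at both 3 h (0.931% of genes) and 8 h (3.6%), which were Cxcl1 (2.90 and 3.58), Cxcl5 (1.79 and 3.05) and Cxcl2 (1.13 and 0.95). For Cxcl2 that call was lost at 3 h without the p53KO-2 library of IL-1b (0.80, adjusted p = 0.128) or the p53KO-1 library of TNF (0.97, adjusted p = 0.102). At 8 h it was lost without the same libraries of that time (0.59 and 0.70, adjusted p = 0.346 and 0.375) and with the length trend removed (0.80, adjusted p = 0.0839). Cxcl3 did not differ between the cytokines at 3 h (-0.15, SE 0.25) or 8 h (0.27, SE 0.21).

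Cxcl2 and Cxcl3 were higher with LPS than with IL-1b at 3 h (1.33, SE 0.18, and 1.51, SE 0.21), where 2.93% of all genes were, and at 8 h (2.63, SE 0.20, and 1.88, SE 0.17), where 6.81% were. Cxcl1 and Cxcl5 were not called, with log2 differences of -0.02 (SE 0.32) and 0.02 (SE 0.21) at 3 h and -0.07 (SE 0.34) and -0.52 (SE 0.20, adjusted p = 0.116) at 8 h. The 8 h levels of Cxcl5 did not overlap, with 247 and 285 CPM in p53KO-1 and p53KO-2 after LPS, against 319 and 442 CPM after IL-1b, so the missed threshold does not show that they were alike. With the replicate block Cxcl5 was called lower after LPS at 8 h (-0.48, adjusted p = 4.72e-05). These tests compared levels. Taken as differences between the changes from each stimulus's own 0 h libraries, with their few counts, 3 comparisons were called, all of Cxcl5: LPS minus TNF at 3 h (1.74, adjusted p = 0.0435) and 8 h (2.48, adjusted p = 0.000912), and IL-1b minus TNF at 8 h (3.01, adjusted p = 0.00181). Of all 13851 genes, 260, 610 and 70 were called in these 3 comparisons.

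**Figure D3:**
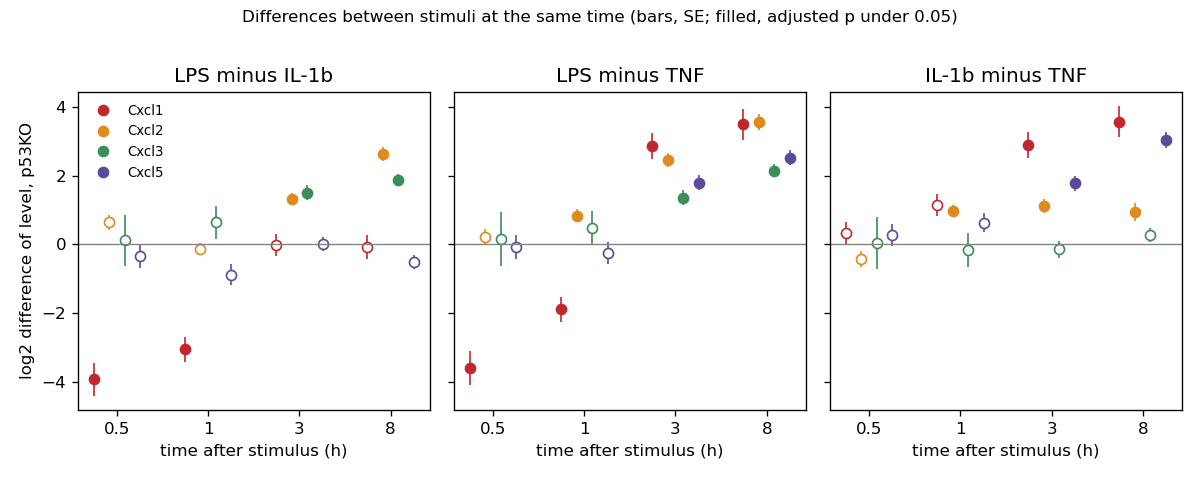
Log2 difference of the level in p53KO between stimuli at the same time (h), with 1 panel per pair; bars are SE, colours are genes and filled points have an adjusted p under 0.05. Cxcl1 ran from -3.61 at 0.5 h to 3.51 at 8 h for LPS minus TNF, while Cxcl2 in the same panel was called from 1 h on.

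The Cxcl1 to Cxcl2 count ratio within a library, which does not depend on library size, was lower after LPS than after IL-1b in all 3 lines at each time after 0 h. At 0.5 h it was 0.173 in p53KO-1, 0.248 in p53KO-2 and 0.717 in WT after LPS, against 4.88, 5.10 and 8.69 after IL-1b and 2.54, 3.31 and 4.95 after TNF. At 8 h it was 0.592, 1.04 and 1.24 after LPS, 4.48, 5.56 and 8.13 after IL-1b and 0.733, 0.972 and 2.33 after TNF. LPS and IL-1b did not overlap at any of the 4 times after 0 h, and LPS and TNF did not overlap at 0.5 h and 1 h. LPS and TNF overlapped at 3 h and 8 h, as did IL-1b and TNF at 0.5 h and 1 h. The exact two-sided permutation test of 3 libraries against 3 gave p = 0.1 for each comparison without overlap (adjusted p = 0.15 over 12 comparisons). That is the smallest p it can give, so it could not decide at 0.05. It also mixed WT with p53KO and did not pair the libraries of a line. The ratio was examined after the levels had been seen.

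**Figure D4:**
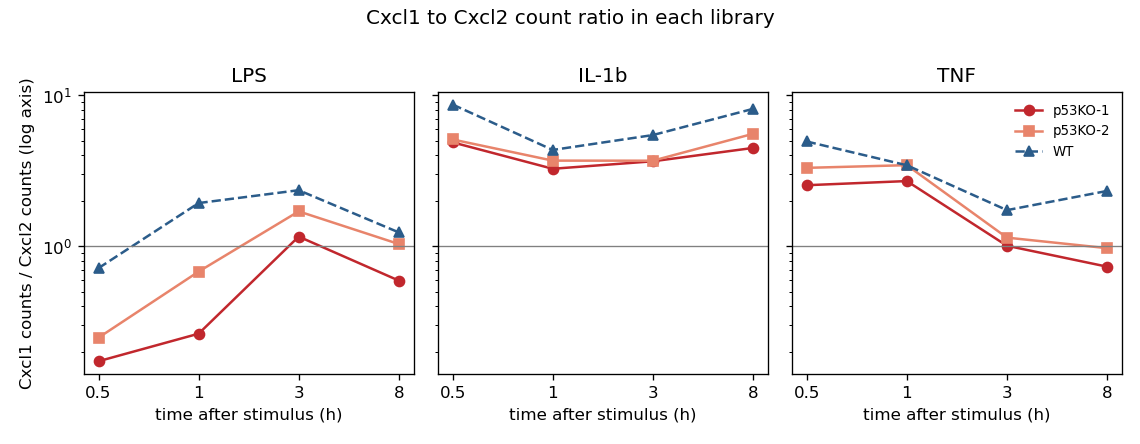
Ratio of Cxcl1 counts to Cxcl2 counts in each library (log axis) over the time course (h, drawn at equal steps), in a panel for each stimulus; red circles are p53KO-1, orange squares p53KO-2 and dashed blue triangles WT. At 0.5 h the 3 libraries after LPS lay at 0.173 to 0.717, below all those after IL-1b (4.88 to 8.69) and TNF (2.54 to 4.95).

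Cxcl1 and Cxcl5 had fewer reads in both p53KO lines than in the 1 WT line before stimulation. At 0 h, with the 3 libraries of each line summed, Cxcl5 had 218 and 313 counts in p53KO-1 and p53KO-2, against 1034 in WT. The p53KO minus WT log2 difference was -2.23 (SE 0.14, adjusted p = 6.9e-09). Cxcl1 had 15 and 47 counts in p53KO and 97 in WT, a difference of -1.91 (SE 0.39, adjusted p = 0.00174). Both were lower in p53KO, as were 11.6% of the 12993 genes tested, while 14% were higher. Cxcl2 (12 and 8 counts in p53KO, 11 in WT) and Cxcl3 (6 and 4 in p53KO, 21 in WT) were too low to be tested. This fit had 1 residual degree of freedom and a prior of 14.5, so its SE and p rest on the 2 p53KO sums and on the spread of other genes. They hold nothing of the spread between WT cultures, and line and genotype cannot be told apart.

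The same order held after stimulation for most conditions. In all 15 conditions both p53KO libraries were below the WT library for Cxcl1 and for Cxcl5, with median ratios of the p53KO mean to WT of 0.406 and 0.226. For Cxcl3 both were below WT in 14 of 15 (median ratio 0.395), and for Cxcl2 in 8 of 15, with 4 above WT (median ratio 0.835). These conditions share lines and are not independent, and how many of all genes showed the same order was not counted. Cxcl5 at 8 h of IL-1b had 319 and 442 CPM in p53KO and 1198 CPM in WT, and Cxcl2 at 3 h of LPS had 165 and 180 CPM in p53KO and 179 CPM in WT. In bulk RNA, fewer expressing cells and less RNA per cell cannot be told apart. The 10 macrophage markers, all measured, summed to 265 to 480 CPM in p53KO and 383 to 586 CPM in WT, and their part in these differences was not tested. At 3 h, 2 of these 10 were higher with LPS (21.9% of all genes were) and 1 with each cytokine (21% for IL-1b and 18.4% for TNF). The 5 endothelial markers summed to 11.99 to 27.5 CPM in p53KO and 10.1 to 21.6 CPM in WT, and the 5 epithelial markers, of which 3 passed the filter, to 1.27 to 6.46 CPM in p53KO and 0.819 to 7.94 CPM in WT.

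**Figure D5:**
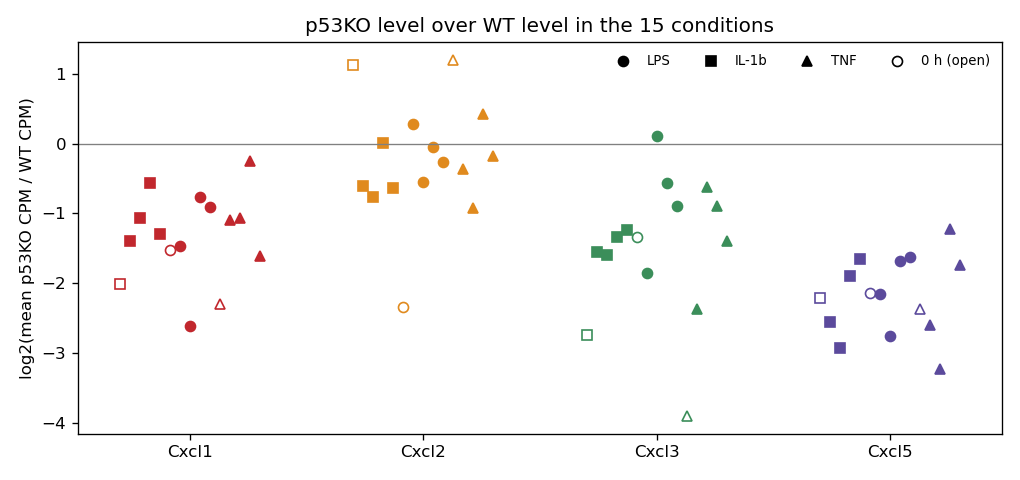
Log2 ratio of the mean p53KO level to the WT level (CPM) for each gene in the 15 conditions; circles are LPS, squares IL-1b and triangles TNF, and open symbols are 0 h. All points of Cxcl1 and Cxcl5 lie below 0, while those of Cxcl2 lie on both sides of it.

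No member was called for a genotype difference in its change from 0 h by edgeR or DESeq2's test, which gave no adjusted p for Cxcl3 with IL-1b, and 1, 2 and 1 of the 4 had an unadjusted p under 0.05 for IL-1b, TNF and LPS by edgeR, as had 2706, 1186 and 1745 of all 13851 genes. The F test over the 4 times gave adjusted p = 0.145, 0.0876 and 0.475 for Cxcl5 after IL-1b, TNF and LPS, 0.743, 0.919 and 0.322 for Cxcl1, 0.4, 0.415 and 0.538 for Cxcl2, and 0.789, 0.635 and 0.654 for Cxcl3. Of all genes tested, 5.74%, 0.462% and 2.66% were called in these tests. With the 0 h libraries pooled, Cxcl5 was called for TNF (adjusted p = 0.0141). Its log2 change in p53KO and WT was 0.87 and 1.76 at 1 h of TNF and 3.06 and 1.92 at 3 h. For Cxcl1 at 1 h of LPS the changes were 5.21 in p53KO and 6.36 in WT (difference -1.15, SE 1.55), where the p53KO libraries had 21.6 and 52.3 CPM and the WT library 225 CPM. The SEs of these differences reached 2.30, so sizeable differences could have gone undetected. In this fit each single WT library borrowed its spread from the p53KO libraries.

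Across the 45 libraries the 4 genes fell into pairs. The Pearson r of log2 CPM was 0.881 between Cxcl1 and Cxcl2 and 0.886 between Cxcl3 and Cxcl5, and 0.511 to 0.643 for the other pairs. The libraries share lines, stimuli and 0 h levels, so r is a description of a shared time course. Among the other genes, Nfkbia, which encodes the NF-kB inhibitor IkB alpha, was most like Cxcl1 (r = 0.916), followed by Ier3 (0.904), Btg1 (0.891), Rgs16 (0.880) and Gadd45b (0.864). Cxcl2 was most like Btg1 (0.906), an antiproliferative gene, then Ch25h (0.887), which encodes cholesterol 25-hydroxylase, Nfkbia (0.877), Ier3 (0.877) and Rgs16 (0.848). Cxcl3 was most like Mmp10 (0.963), a matrix metalloproteinase gene, then Serpinb2 (0.960), Ifngr2 (0.960), Penk (0.956) and Sod2 (0.949). Cxcl5 was most like Timp1 (0.960), an inhibitor of metalloproteinases, then Angptl4 (0.937), Ptprn (0.936), Fgf7 (0.936) and Penk (0.932). Cxcl1 and Cxcl2 shared Nfkbia, Ier3, Btg1 and Rgs16 among their 5, and Cxcl3 and Cxcl5 shared Penk.

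The genes around the chemokines were mixed. The other 12 genes with a midpoint within 250 kb of their span were Afm, 5830473C10Rik, Rassf6, Ppbp, Pf4, Cxcl15, Gm24322, Gm22816, Mthfd2l, Epgn, Ereg and Areg. Ereg and Areg, which encode the growth factors epiregulin and amphiregulin, were higher at 3 h, with log2 changes of 3.76 (SE 0.17) and 4.05 (SE 0.32) for LPS, 3.68 (SE 0.17) and 3.47 (SE 0.30) for IL-1b and 2.98 (SE 0.18) and 3.08 (SE 0.37) for TNF. Rassf6 rose by 1.70 (SE 0.23), 1.49 (SE 0.26) and 1.34 (SE 0.27) in the same order of stimuli. Mthfd2l was called at 3 h of TNF alone among the stimuli (0.55, SE 0.16). Afm, 5830473C10Rik, Gm24322, Gm22816 and Epgn did not pass the filter.

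Other genes of the pathway are given by their counts of calls at 3 h, when 21.9%, 21% and 18.4% of all genes tested were higher after LPS, IL-1b and TNF. Calls in either direction were made for 6102, 5916 and 4982 of the 13851 genes. Of the receptors and related ligands, Cxcr1, Cxcr2 and Ackr1 did not pass the filter, with at most 0.131, 0.237 and 0.898 CPM in any library. The mRNA of Cxcr2, the receptor of these chemokines, was thus near 0 in every library. Which cells of the bulk RNA made the chemokines was not tested. Of the 3 platelet-type and lung relatives tested, Ppbp was higher after IL-1b (1.37, SE 0.40, adjusted p = 0.0082), while Pf4 and Cxcl15 were not called after any stimulus. Of 13 genes for neutrophil production and recruitment, 13 rose after LPS, 13 after IL-1b and 11 after TNF, with median log2 changes of 6.54, 5.01 and 3.56 against -0.02, -0.02 and -0.01 over all genes tested. Among them, Il6, an inflammatory cytokine, rose by 6.54 (SE 0.16), 5.88 (SE 0.16) and 3.68 (SE 0.23), and Vcam1, a leukocyte adhesion molecule, by 2.39, 1.65 and 1.96 (SE 0.08, 0.07 and 0.08). Il1b itself was also called after each stimulus, from a level too near 0 at 0 h to give a fold change.

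Of 14 NF-kB subunits and inhibitors, 12 were higher and 1 lower at 3 h after each stimulus, with median log2 changes of 2.59 after LPS, 2.07 after IL-1b and 1.83 after TNF. Nfkbia rose by 4.05, 3.79 and 3.65 (SE 0.13 each), Tnfaip3, the ubiquitin-editing inhibitor A20, by 5.14, 3.81 and 4.01 (SE 0.19, 0.19 and 0.20), and Nfkbiz, the nuclear cofactor IkB zeta, by 3.00, 3.50 and 1.47 (SE 0.13, 0.12 and 0.14). Of 9 regulators of chemokine mRNA stability, 6 were higher and none lower after each stimulus, with medians of 0.56, 0.57 and 0.41. Zc3h12a, which encodes the ribonuclease Regnase-1, rose by 4.19 (SE 0.19), 5.19 (SE 0.18) and 2.26 (SE 0.22). Zfp36, which encodes tristetraprolin, a protein that binds AU-rich elements and destabilises messages, rose by 2.04, 0.75 and 1.27 (SE 0.14, 0.14 and 0.15), and Zfp36l2, a relative, by 0.59, 0.60 and 0.74 (SE 0.11 each). Of the 16 receptors and adaptors of the stimuli that were tested, of 18, 9 were higher and 3 lower after LPS, 7 and 2 after IL-1b and 5 and 3 after TNF. The LPS co-receptor gene Cd14 rose by 2.54 (SE 0.13), 1.16 (SE 0.14) and 1.17 (SE 0.15), the receptor gene Il1r1 by 1.78, 1.76 and 1.35 (SE 0.08, 0.08 and 0.09), and the adaptor gene Myd88 by 1.496, 0.29 and 0.40 (SE 0.10, 0.10 and 0.11). These lists were chosen with earlier results of the data known, and nothing in their counts is particular to the chemokines.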

How the data were processed

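RNA was measured with stranded poly(A) RNA sequencing, 50-base paired ends, after 15 PCR cycles, per the labels' protocols. The authors deposited 1 table of raw read counts per gene for all 45 libraries. STAR, featureCounts and DESeq are listed without versions, beside the genome build mm9, in the submitters' processing notes. The table holds 37991 genes and 5 categories that name no gene, which take 24.65% of the counts and were left out. Symbols were found for 32919 gene IDs.

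The 13851 genes that reached 1 CPM in 2 or more libraries were fitted with edgeR 4.0.16 in R 4.3.3, using TMM scaling, 30 group means and the quasi-likelihood test with 15 residual degrees of freedom. Adjusted p-values are Benjamini-Hochberg values over all genes tested, two-sided, with a threshold of 0.05. CPM values and log2 fold changes were computed from the deposited counts. Each p53KO change was taken against the 0 h libraries of its own stimulus. Genotype differences in change were tested with an F test over 4 times, and 0 h levels after summing the 3 libraries of each line. Intervals on count ratios (95%) cover counting error only, since PCR reads without molecular identifiers are not independent molecules. Alternatives were DESeq2 1.42.0, its size factors, other filters, pooled 0 h libraries, differences of changes, the p53KO libraries alone, a replicate block and leaving out each library. The transcript length trend, the Cxcl1 to Cxcl2 ratio and the promoter words were added after the data had been seen. The tests were checked on simulated counts.

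The members and the gene lists were chosen with earlier results of these data known. The genes named are the 4 members, the 5 genes most like each of them by Pearson r of log2 CPM, their neighbours, and for each list, the 3 genes that ranked first by adjusted p at 3 h. Promoters are RefSeq sequences on GRCm38.p6, and transcripts are from GENCODE M21.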

Additional observations from a re-analysis of the deposited data

Results flagged for a closer look

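Cxcl3 at 0.5 h of IL-1b was singled out because the genotypes moved in opposite directions: both p53KO libraries were higher than at 0 h (0.30 and 0.22 CPM at 0.5 h, 0.17 and 0.09 CPM at 0 h), while the WT library was lower, with a change of -0.078 CPM. The difference was not tested sample by sample, and the values rest on 4 and 3 counts against 2 and 1 in p53KO and on 7 against 8 in WT. The F test over all 4 times did not call Cxcl3 for IL-1b (adjusted p = 0.789).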

How the results depend on the processing

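With DESeq2 size factors 146 of 146 results kept their direction and their side of the threshold, as did 48 of 48 with a filter of 1 CPM in 10 libraries and 48 of 48 with the p53KO libraries alone. DESeq2's test kept 129 of 137, pooled 0 h libraries 56 of 60, the removed length trend 129 of 132 and leaving out a library 480 of 552. Scaling moved the median of all genes by at most 0.024 on the log2 scale. Counts over all genes moved by more than 1.5 times in 17 of 39 comparisons with DESeq2's test (0.57 to 1.28 times the reported count), 9 of 15 with pooled 0 h libraries (up to 3.09 times), 65 of 150 with a library left out (down to 0.1 times) and 3 of 36 with the length trend removed (down to 0.174 times). Where no reason is given below, the cause was not tested.

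The number of members called at 0.5 h of LPS was 1 as reported and 2 with DESeq2's test, with no filter and with the replicate block, and at 1 h of LPS it was 2 as reported and 4 with no filter, where 24071 genes entered and each gene's spread was set to the trend. The genotype test for TNF called 0 members, and 1 with pooled 0 h libraries. DESeq2's test called 2 members in place of 1 for LPS minus IL-1b at 0.5 h, 1 in place of 2 for LPS minus TNF at 1 h, and 2 in place of 4 for 8 h minus 3 h of IL-1b. With the length trend removed, LPS minus TNF at 1 h gave 1 in place of 2.

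Taken as differences of changes from 0 h, which add the error of the 0 h libraries, 17 of 48 results kept direction and call, and the number of all genes called fell to 0.0293 to 0.414 times the reported one in 12 of 12 comparisons. The number of members called was then 0 for IL-1b minus TNF at 1 h and 3 h and 1 at 8 h, 0 for LPS minus IL-1b at 0.5, 1, 3 and 8 h, 0 for LPS minus TNF at 0.5 h and 1 h, and 1 at 3 h and 8 h. As reported these were 1, 3 and 3, then 1, 1, 2 and 2, then 1, 2, 4 and 4. Directions turned, none of them called, for Cxcl1 in IL-1b minus TNF at 0.5 h (-0.40) and LPS minus IL-1b at 3 h (0.26) and 8 h (0.20), for Cxcl2 in LPS minus IL-1b at 1 h (1.20), and for Cxcl3 in IL-1b minus TNF at 0.5 h (-0.91) and 8 h (-0.68), LPS minus IL-1b at 0.5 h (-0.88) and 1 h (-0.35) and LPS minus TNF at 0.5 h (-1.79), 1 h (-1.47) and 3 h (-0.59). For Cxcl3, LPS minus TNF at 3 h was called as a difference of levels. With the length trend removed, Cxcl3 in IL-1b minus TNF at 0.5 h turned to -0.23.

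The labels do not say that p53KO-1 or p53KO-2 libraries share a culture. Deviations of p53KO-1 from the group means had a median correlation of 0.191 between groups (-0.169 to 0.504 over 105 pairs and 9632 genes), above 0.1 in 73 pairs. A replicate block kept 116 of 132 results, made 15 calls more (5 of Cxcl1, 2 of Cxcl2 and 8 of Cxcl5), and turned Cxcl5 in LPS minus TNF at 0.5 h to 0.0084. With the replicate block the members called were 1 in place of 0 for IL-1b minus TNF at 0.5 h and 3 in place of 1 at 1 h, 2 in place of 1 for LPS minus IL-1b at 0.5 h and 1 h, and 3 in place of 1 for 1 h minus 0.5 h of TNF. Of the calls made with the block, Cxcl5 in LPS minus IL-1b at 8 h (-0.48, adjusted p = 4.72e-05) ranged from 0.0547 to 0.714 in adjusted p under the other alternatives. Its other calls had adjusted p = 0.0108 at 0.5 h of IL-1b, 0.000214 at 1 h of TNF and 0.0209 at 1 h of LPS. They also had 0.0104 and 8.16e-05 for 1 h minus 0.5 h and 8 h minus 3 h of TNF, and 0.00381 and 3.5e-05 at 1 h for IL-1b minus TNF and LPS minus IL-1b. Cxcl1 was called at 0.5 h of LPS (2.48, adjusted p = 8.78e-05). Cxcl1 was also called for 1 h minus 0.5 h of TNF (adjusted p = 7.9e-08) and 3 h minus 1 h of IL-1b (adjusted p = 0.0428). In IL-1b minus TNF it was called at 0.5 h and 1 h (adjusted p = 0.022 and 2.26e-07). Cxcl2 was called in LPS minus IL-1b at 0.5 h (adjusted p = 0.0147) and for 3 h minus 1 h of TNF (adjusted p = 0.0181). The block moved counts over all genes by more than 1.5 times in 5 of 36 comparisons (up to 5.47 times).

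With 1 library left out, the lone library of its group was assumed to vary like the other groups. The number of members called was then 0 to 1 for IL-1b minus TNF at 1 h, 0 to 1 for LPS minus TNF at 1 h (2 as reported), 2 to 3 for 8 h minus 3 h of IL-1b (4 as reported), 1 to 2 for 1 h minus 0.5 h of LPS, 1 to 3 for 8 h minus 3 h of LPS, 0 to 1 for 1 h minus 0.5 h of TNF and 1 to 3 for 8 h minus 3 h of TNF. Directions of uncalled log2 differences turned in the following ranges. Cxcl1 ranged from -0.40 to 0.31 for LPS minus IL-1b at 3 h, -0.48 to 0.48 at 8 h and -0.60 to 0.11 for 3 h minus 1 h of IL-1b, and Cxcl2 from -0.37 to 0.15 for LPS minus IL-1b at 1 h. Cxcl3 ranged from -0.090 to 0.28 for 0.5 h of LPS, -0.25 to 0.92, -0.47 to 0.13 and -0.063 to 0.54 for IL-1b minus TNF at 0.5, 3 and 8 h, -0.067 to 0.33 for LPS minus IL-1b at 0.5 h and -0.13 to 1.04 for LPS minus TNF at 0.5 h. Cxcl5 ranged from -0.0058 to 0.97 for 1 h of LPS, -0.083 to 0.64 for 0.5 h of TNF, -0.19 to 0.20 for LPS minus IL-1b at 3 h, -0.28 to 0.36 and -0.82 to 0.18 for LPS minus TNF at 0.5 h and 1 h, and -0.22 to 0.75 and -0.034 to 0.35 for 1 h minus 0.5 h and 8 h minus 3 h of LPS. Depth limits Cxcl2 and Cxcl3 at 0 h, where counts were 8 or fewer, and groups of 1 WT library give no error of their own.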
